A study of Mus musculus with 12 samples.

Results

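TRAV7D is the group of V gene segments of the mouse T cell receptor alpha (Tcra) locus that carry the family number 7 and the suffix D, the mark of a copy that lies in the duplicated stretch of the V array. Every row named TRAV7D followed by a copy number was taken, with all of its J partners. There were 4 such rows, TRAV7D-2, TRAV7D-3, TRAV7D-4 and TRAV7D-5, of 79 V segments listed in every table and 85 listed in any. Each row was crossed with 43 J segments, which gave 172 TRAV7D pairs of 3397 pairs in all. The copies stood at rows 6, 8, 10 and 17 of the 79 and were listed in all 12 tables. The tables listed no other TRAV7D row, and other copies of the family that the annotation holds were not analysed here.

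A developing T cell builds its alpha chain by joining 1 V segment (Trav) to 1 J segment (Traj) upstream of the constant gene Trac. The join can be replaced: a further rearrangement takes a V segment from farther upstream and a J segment from farther downstream, until a receptor is selected or the cell dies. J segments are numbered from the 3' end, so TRAJ58 lies at the 5' end of the J array, where rearrangement starts, and TRAJ2 lies at its 3' end. The V array holds repeated blocks, and a segment with the suffix D has a close relative of the same number elsewhere in the array. The recombinase that cuts the segments is made of Rag1 and Rag2, and DPASE is a regulatory element of the locus that encodes them.

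Tcra transcripts were amplified from total RNA by template-switch RACE with a primer in Trac. The cells were preselection double-positive (DP) thymocytes, sorted as CD3e(-), from mice 4 to 6 weeks old. There were 6 groups of 2 libraries each: homozygous DPASE KO and homozygous WT, each at steady state without tamoxifen and again 24 h or 48 h after 1 mg of tamoxifen. All 6 groups carried TcrdCreER and a Rosa26 ZsGreen reporter on C57BL/6J, with the Tcra-Tcrd locus derived from strain 129. The labels give the reporter as heterozygous in the genotype and as homozygous in the strain. At 24 h and 48 h the ZsGreen+ cells were sorted, the cells in which the Cre made from the Tcrd locus had switched on the reporter. The design mentions groups of 2 mice but does not say that each library was a mouse of its own, so p-values measure the spread between libraries, which may be technical. The tables hold V-J fractions alone, so neither the loss of DPASE nor the DP identity of the cells could be checked in them.

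In 8 tables the fractions summed to 0.995 to 0.998, and in the other 4 they summed to 1.97 to 1.99. Those 4 were replicate 2 of KO and of WT at 24 h and at 48 h. A TRAV7D pair was listed at 0 for 0 to 15 of the 172 pairs in the 8 tables and for 62 to 90 in the 4. The smallest share above 0 was 0.000336% to 0.000853% in the 8 tables and 0.00401% to 0.00937% in the 4. The depth is unknown, so no counting error can be given. All values below are shares of a table's own total, in percent, and the 4 tables are named wherever a value rests on them. The V-J joins of invariant NKT cells (TRAV11 with TRAJ18, and TRAV11D with TRAJ18) made up 0% to 0.0462% and 0% to 0.00498% of a library, and that of MAIT cells (TRAV1 with TRAJ33) 0% to 0.0503%.

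The V exons of the 4 copies are shown because they decide how well a short read can tell one copy from another. They are the reference sequences of the C57BL/6J strain (GENCODE M21 on GRCm38), whereas the samples carried the locus of strain 129. The build the authors used is not given in the sources used here. All 4 lie on the plus strand of chromosome 14 upstream of the J array. The V exon of Trav7d-2 spans chr14:52684185-52684472 (288 bases), that of Trav7d-3 chr14:52744553-52744840 (288 bases), that of Trav7d-4 chr14:52770101-52770392 (292 bases) and that of Trav7d-5 chr14:52836100-52836387 (288 bases). Each follows a separate leader exon of 49 bases. Capitals mark the bases that differ from the segment of the same number without suffix, Trav7-2 to Trav7-5.
TRAV7D-2: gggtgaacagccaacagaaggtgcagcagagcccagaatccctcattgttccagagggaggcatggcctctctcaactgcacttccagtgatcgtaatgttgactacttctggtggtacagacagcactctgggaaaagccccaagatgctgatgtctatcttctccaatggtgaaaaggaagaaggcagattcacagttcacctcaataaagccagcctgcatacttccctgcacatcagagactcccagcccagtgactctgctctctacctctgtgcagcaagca
TRAV7D-3: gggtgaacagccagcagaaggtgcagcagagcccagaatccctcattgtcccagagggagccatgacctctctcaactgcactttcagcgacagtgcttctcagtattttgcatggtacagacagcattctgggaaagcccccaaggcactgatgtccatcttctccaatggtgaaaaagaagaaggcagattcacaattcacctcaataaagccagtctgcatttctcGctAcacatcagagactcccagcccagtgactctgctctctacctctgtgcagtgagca
TRAV7D-4: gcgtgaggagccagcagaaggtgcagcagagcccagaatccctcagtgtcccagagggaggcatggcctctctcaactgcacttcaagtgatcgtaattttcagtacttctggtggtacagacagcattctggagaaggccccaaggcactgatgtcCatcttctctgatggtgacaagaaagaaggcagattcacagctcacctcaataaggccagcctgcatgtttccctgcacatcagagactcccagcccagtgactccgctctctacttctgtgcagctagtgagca
TRAV7D-5: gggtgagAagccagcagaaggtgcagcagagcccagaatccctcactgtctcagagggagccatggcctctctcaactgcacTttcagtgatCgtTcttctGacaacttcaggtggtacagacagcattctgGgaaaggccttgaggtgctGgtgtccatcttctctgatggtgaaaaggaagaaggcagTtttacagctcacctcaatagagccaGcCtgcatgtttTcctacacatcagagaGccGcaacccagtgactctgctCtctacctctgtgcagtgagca
Trav7d-2 has no capital: it was identical to Trav7-2 over the 287 bases compared. Trav7d-3 differed from Trav7-3 at 2 bases (99.3% identity), G230C and A233G, counted from 1 at the 5' end of the V exon with the base of Trav7d-3 first. Trav7d-4 differed from Trav7-4 at 1 base (99.7%), C158A. Trav7d-5 differed from Trav7-5 at 14 bases (95.1%) and was identical to a further copy, Trav7n-5. Among themselves the 4 copies were 85.8% to 89.9% identical. Each lay 691 to 706 kb from its namesake without suffix. Neighbouring copies lay 60.1 kb (Trav7d-2 to Trav7d-3), 25.3 kb and 65.7 kb apart. Members of the D group were therefore distinct from each other. Reads of TRAV7D-2, TRAV7D-3 and TRAV7D-4 could be split from those of their namesakes by at most a few bases, so the division of reads within those pairs is uncertain. In this reference the V exon of Trav7d-5 could not tell its reads from those of Trav7n-5.

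At steady state 3 of the 4 copies had lower shares in both DPASE KO libraries than in both WT libraries. TRAV7D-2, the copy farthest from the J array, made up 1.37% and 1.41% of the KO libraries, against 1.62% and 1.74% of the WT libraries. TRAV7D-3 made up 1.41% and 1.33% of the KO libraries, against 1.70% and 1.63% of the WT libraries. For both copies the KO libraries lay below the WT libraries with no overlap. TRAV7D-4 had 2.01% and 1.10% in KO and 2.29% and 1.47% in WT. It was the highest of the 4 copies in replicate 1 of both genotypes and lay below TRAV7D-2 and TRAV7D-3 in replicate 2 of both. Its replicates differed more than its genotypes, and the groups overlapped. TRAV7D-5, the copy nearest to the J array, had 0.978% and 0.960% in KO, against 1.04% and 1.12% in WT, again without overlap. Hence both KO libraries lay below both WT libraries for 3 of the 4 copies, beside 30 of all 79 V segments (38%). Both KO libraries lay above for 0 of the 4, beside 23 of 79 (29.1%). Summed over the copies, TRAV7D took 5.76% and 4.80% of the KO libraries and 6.65% and 5.95% of the WT libraries. At 24 h the sum was 3.84% and 3.47% in KO and 4.37% and 3.58% in WT. At 48 h it was 5.24% and 3.49% in KO and 6.30% and 3.07% in WT.

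After tamoxifen the replicates parted, and the genotypes overlapped for every copy. At 24 h TRAV7D-2 had 0.557% and 0.211% in KO and 0.859% and 0.221% in WT. At 48 h it had 1.30% and 0.367% in KO and 1.67% and 0.367% in WT. TRAV7D-3 had 0.871% and 0.281% in KO and 1.06% and 0.365% in WT at 24 h. At 48 h TRAV7D-3 had 1.38% and 0.491% in KO and 1.68% and 0.415% in WT. In each of these groups the low library was replicate 2, whose table summed to about 2, with a share of 0.219 to 0.379 times that of replicate 1. TRAV7D-4 had 1.52% and 1.03% in KO and 1.62% and 1.41% in WT at 24 h. At 48 h TRAV7D-4 had 1.82% and 1.04% in KO and 1.88% and 1.12% in WT, so it too was lower in replicate 2, as it was at steady state. TRAV7D-5 went the other way: it had 0.893% and 1.94% in KO and 0.826% and 1.59% in WT at 24 h. At 48 h TRAV7D-5 had 0.734% and 1.59% in KO and 1.06% and 1.16% in WT. Its replicate 2 was 1.10 to 2.18 times replicate 1 in these groups. At 24 h both KO libraries lay below both WT libraries for 0 of the 4 copies, beside 7.59% of all segments, and at 48 h for 0 of the 4, beside 6.33%. In tables summing to about 1, TRAV7D-2 made up 14.5% to 29.4% of all TRAV7D and TRAV7D-5 14.0% to 23.3%. In the 4 tables summing to about 2, these shares were 6.08% to 11.97% for TRAV7D-2 and 37.9% to 56.05% for TRAV7D-5. The part that the kind of table plays in these values was not tested. Replicate 2 at these times always came in the second kind.

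**Figure D1:**
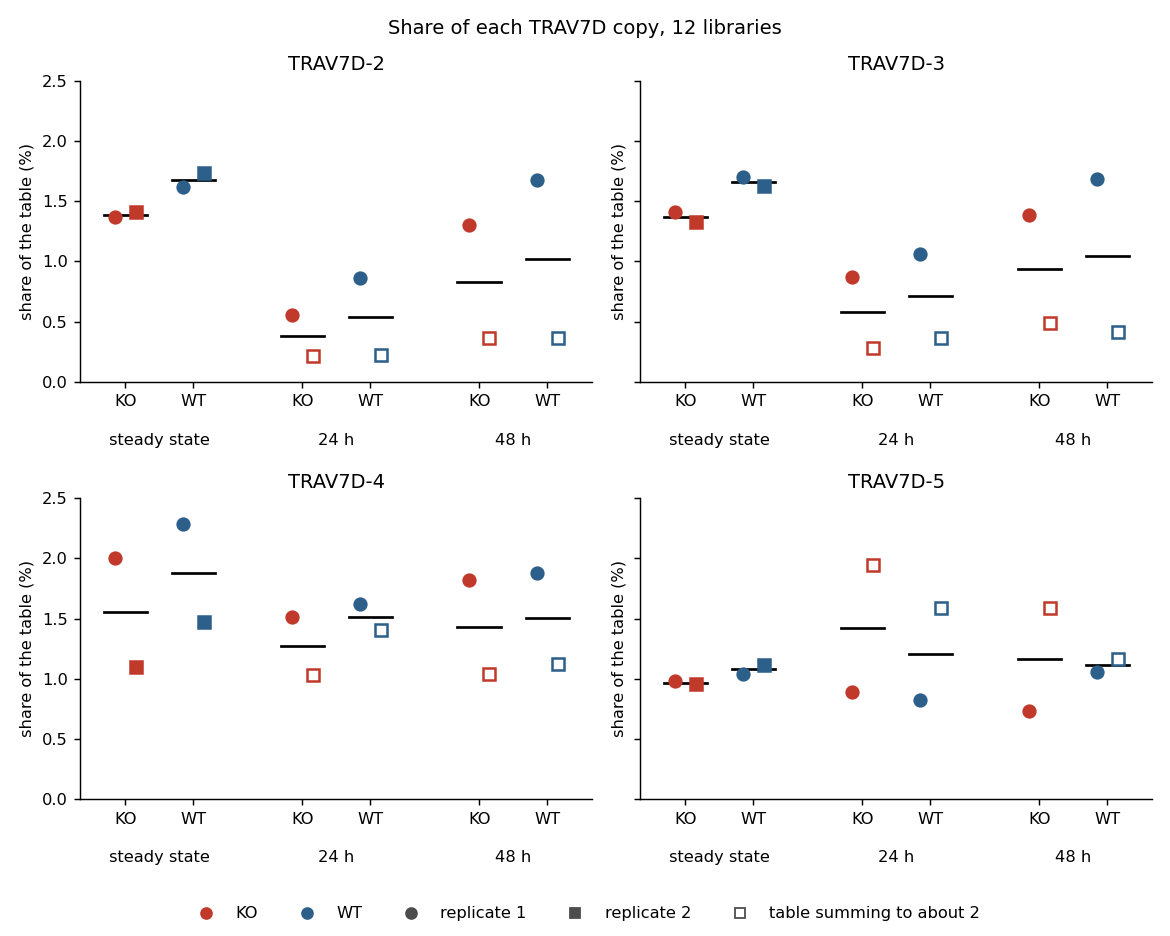
Share of each TRAV7D copy (1 panel per copy; y axis, percent of the table's own total) in the 12 libraries at steady state, 24 h and 48 h, with DPASE KO (red) left of WT (blue). Circles are replicate 1, squares replicate 2, open symbols tables summing to about 2, and black bars the mean of 2 libraries. At 24 h and 48 h the distance between replicates of TRAV7D-2 and TRAV7D-3 exceeds that between genotypes, and TRAV7D-5 is higher in the open squares.

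The level order over the 6 groups was the same for TRAV7D-2, TRAV7D-3 and the summed share: WT at steady state, KO at steady state, WT at 48 h, KO at 48 h, WT at 24 h and KO at 24 h. The summed share averaged 5.28%, 3.65% and 4.36% in KO and 6.30%, 3.98% and 4.68% in WT at steady state, 24 h and 48 h (n = 2 each). Among neighbours in that order, only WT and KO at steady state did not overlap, and every later step lay within the spread of the libraries. Each mean at 24 h and 48 h includes replicate 2, a table summing to about 2, and the third place of WT at 48 h rests on it. In replicate 1 TRAV7D-2 had 1.67% in WT at 48 h, beside steady-state values of 1.62% (WT) and 1.37% (KO). The same libraries had 1.68%, 1.70% and 1.41% for TRAV7D-3 and 6.30%, 6.65% and 5.76% for the summed share. The remaining groups kept their order in replicate 1. TRAV7D-4 had no neighbours that failed to overlap. TRAV7D-5 had its highest mean in KO at 24 h (1.42% ± 0.743, SD, n = 2) and its lowest in KO at steady state (0.969% ± 0.0127, SD, n = 2). Its only neighbours without overlap were KO and WT at steady state, with KO the lower, as for TRAV7D-2 and TRAV7D-3. The highest mean of TRAV7D-5 rests on replicate 2 of KO at 24 h (1.94%), a table summing to about 2, beside 0.893% in replicate 1.

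The genotypes were compared with limma over all 79 segments. No copy passed an adjusted p of 0.05 at any sampling or over their mean, and no segment did (0 of 79, 0%). At an unadjusted p under 0.05 there were 0, 0 and 1 of 79 segments at steady state, 24 h and 48 h and 5 of 79 over the mean, none of them TRAV7D. Over the 3 samplings the KO minus WT difference of TRAV7D-2 on the log2(percent + 0.01) scale was -0.26 (SE 0.542, limma adjusted p = 0.931). Those of TRAV7D-3 and TRAV7D-4 were -0.21 and -0.22 (limma adjusted p = 0.931 for both). TRAV7D-5 stood at 0.00277 (limma adjusted p = 0.998). Same-numbered libraries deviated together, so the replicate number was also fitted as a block. TRAV7D-4, whose KO library was the lower one in 6 of 6 same-numbered pairs, then had an SE of 0.0799 and an adjusted p of 0.0724 in limma. With the block TRAV7D-2 had an adjusted p of 0.0803 and TRAV7D-3 of 0.108 in limma. Still 0 of the 4 copies were called in that fit at any sampling, beside 0 of 79 segments at steady state, 4 at 24 h (5.06%, of which 3 lower, 3.8%), 28 at 48 h (35.4%) and 34 over the mean (43%). A further fit used only replicate 1 at 24 h and 48 h, which leaves out the 4 tables. There the difference over the 3 samplings was -0.42 for TRAV7D-2 and -0.28 for TRAV7D-3. In that fit the lone libraries are assumed to vary like the steady-state ones, so its calls are not used here. The summed share differed by -0.554 percentage points (KO minus WT, exact two-sided permutation of genotype within sampling, p = 0.361, adjusted p = 0.476, lower in KO in 5 of 6 pairs).

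The other suffix-D segments gave a reference for the size of these differences. Of the 29 others listed in every table, 28 had a KO minus WT log2 difference below 0 at steady state, with a median of -0.30, and 22 had both KO libraries below both WT libraries. The 4 TRAV7D copies had a median of -0.27, the 5 TRAV7 segments without suffix -0.01, and all 79 segments -0.04. At 24 h the TRAV7D median was -0.30, beside -0.10 for all 79 segments. After centring each library on its mean log2 value over all segments these became -0.18 and 0.02. This was the only KO minus WT comparison in which centring moved the median of all segments by more than 0.1. At 48 h the TRAV7D median was -0.06, with TRAV7D-3 and TRAV7D-5 above 0 on the centred scale (0.04 and 0.02), while that of the other suffix-D segments was -0.42. With the replicate block, 14 of the 29 other suffix-D segments were called lower over the mean of the samplings, against 0 of 4 TRAV7D copies (limma adjusted p under 0.05, 24.1% of all segments called lower). The ratio of summed TRAV7D to all other suffix-D segments differed by 0.14 on the log2 scale (KO minus WT, exact permutation p = 0.574, adjusted p = 0.574), so no difference between TRAV7D and the other duplicated segments was detectable.

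From 24 h to 48 h the TRAV7D-2 difference on the log2 scale was 0.99 in KO (SE 0.939, limma adjusted p = 0.835) and 0.83 in WT (SE 0.939, adjusted p = 0.672). The TRAV7D-3 difference was 0.72 in KO and 0.42 in WT, that of TRAV7D-4 was 0.14 in KO and -0.06 in WT, and that of TRAV7D-5 was -0.28 in KO and -0.05 in WT. The median over all 79 segments was itself 0.28 in KO and 0.27 in WT, and -0.04 and 0.01 after centring. The median of the 4 copies was 0.43 in KO and 0.19 in WT, and 0.11 and -0.07 after centring. No copy was called in either genotype, beside 1 of 79 segments (1.27%) in each. In replicate 1 TRAV7D-2 had 0.557% at 24 h and 1.30% at 48 h in KO, and 0.859% and 1.67% in WT. TRAV7D-3 had 0.871% and 1.38% in KO, and 1.06% and 1.68% in WT. Replicate 2 was also higher at 48 h for both copies in both genotypes. The change did not differ detectably between genotypes (0 of 79 segments called for the difference).

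The J segments joined to TRAV7D were the readout in which the genotypes parted. In DPASE KO, TRAV7D was joined to 5' J segments more often and to 3' J segments less often than in WT. At steady state, TRAJ58 to TRAJ42 (the 5' window, 13 J segments) held 37.8% and 34.9% of TRAV7D in KO, against 24.4% and 21.3% in WT. TRAJ21 to TRAJ2 (the 3' window, 14 J segments) held 22.2% and 25.7% in KO, against 40.2% and 45.2% in WT. At 24 h the 5' window held 71.2% and 78.5% in KO and 53.6% and 66.1% in WT. The 3' window was then nearly empty in both, with 3.29% and 2.03% in KO and 7.13% and 2.99% in WT, and its groups overlapped. At 48 h the 5' window held 45.3% and 51.6% in KO, against 25.1% and 27.4% in WT. The 3' window at 48 h held 10.6% and 10.5% in KO, against 31.5% and 27.1% in WT. Over the 3 samplings the 5' window differed by 16.9 percentage points (KO minus WT, exact permutation p = 0.00926, the smallest possible, adjusted p = 0.0293, higher in KO in 6 of 6 pairs). The 3' window differed by -13.3 points (exact permutation p = 0.0185, adjusted p = 0.0417, lower in KO in 6 of 6 pairs). With the replicate block, where no p below 0.0312 is possible, the adjusted exact permutation p was 0.0625 for both windows. Without replicate 1 of WT at 24 h the differences were 14.8 and -12.6 points (adjusted exact p = 0.0556 and 0.0625), and without replicate 2 of KO at 24 h they were 15.7 and -13.1 points (the same adjusted p).

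**Figure D2:**
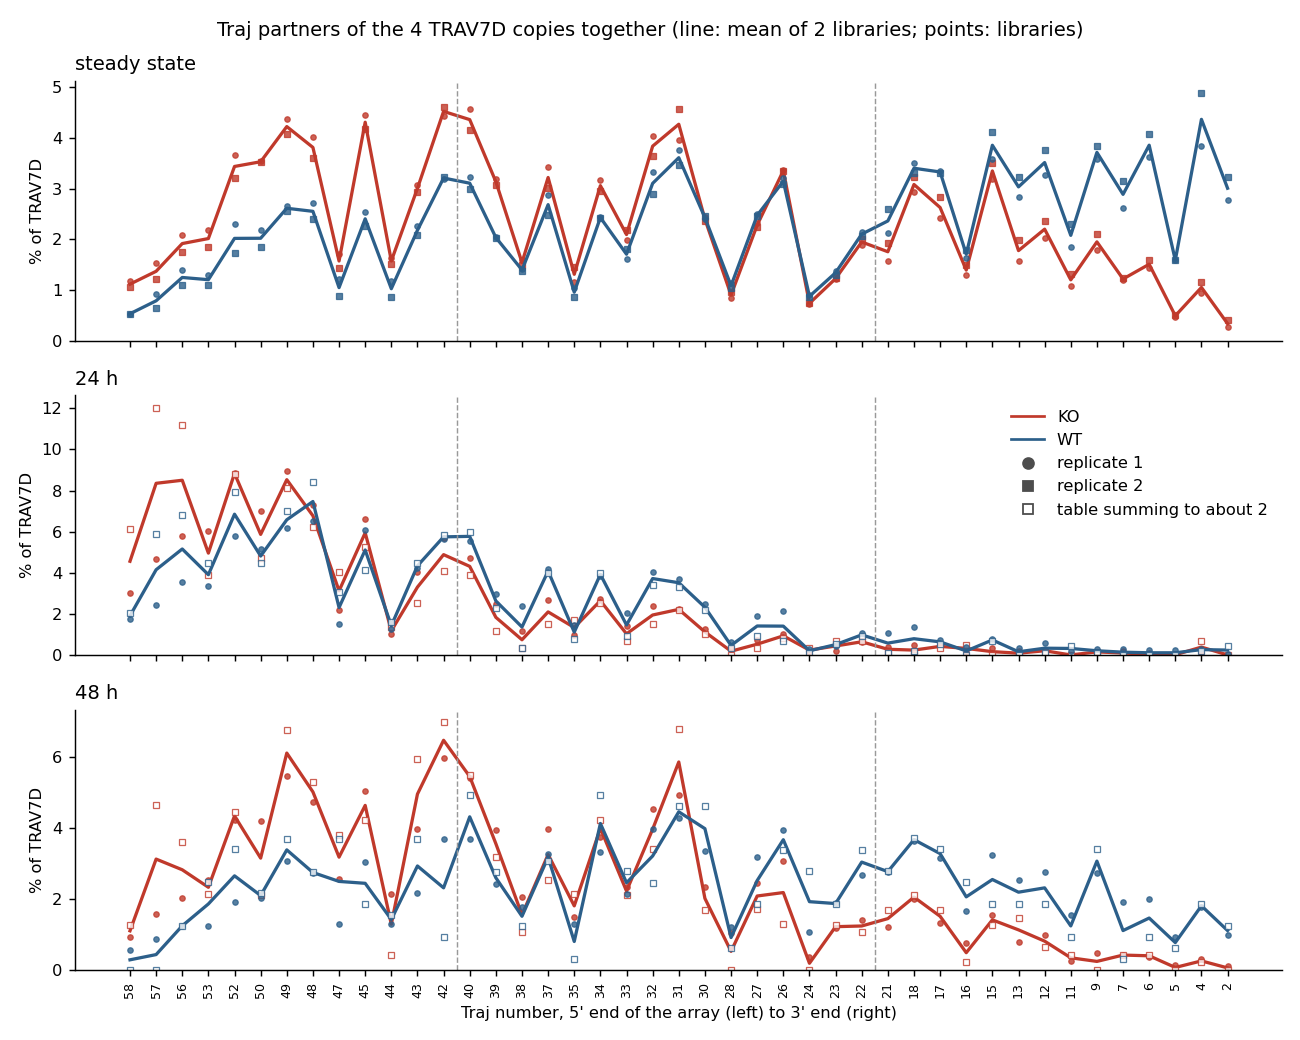
Share of all TRAV7D taken by each J segment (y axis, percent of summed TRAV7D; x axis, TRAJ58 at the left to TRAJ2 at the right) in DPASE KO (red) and WT (blue), 1 panel per sampling. Lines are means of 2 libraries, points the libraries (open where the table sums to about 2), and dashed lines the borders of the 5' and 3' windows. KO lies above WT across the 5' window and below it across the 3' window at steady state, and most TRAV7D sits in the 5' window in both genotypes at 24 h.

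Single J segments showed the same arrangement. At steady state TRAJ58 took 1.17% and 1.06% of TRAV7D in KO, against 0.532% and 0.541% in WT. TRAJ49, the J segment most used with TRAV7D over all libraries, took 4.37% and 4.07% in KO and 2.66% and 2.57% in WT. At the other end TRAJ4 took 0.941% and 1.17% in KO, against 3.84% and 4.88% in WT. TRAJ2 took 0.278% and 0.406% in KO, against 2.77% and 3.24% in WT. The groups did not overlap for any of these J segments. Both KO libraries lay above both WT libraries for 23 of the 43 J segments, among them all 13 of the 5' window, and below for 19, among them all 14 of the 3' window. The same counts over all other V segments together were 19 above (44.2%) and 19 below (44.2%). At 24 h TRAV7D had 3 J segments above and 13 below, beside 14% and 65.1% for the other V segments. At 48 h it had 13 above and 18 below, beside 37.2% and 46.5%. TRAJ2 at 48 h took 0.105% of TRAV7D in KO replicate 1 and was listed at 0 in KO replicate 2, against 0.977% and 1.23% in WT.

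The mean J number, weighted by the share of each pair, gave 1 value per copy and library, and a lower value stands for J segments nearer to the 3' end. For the 4 copies together it was 34.2 and 32.9 in KO at steady state, against 27.4 and 25.7 in WT. At 24 h it was 44.7 and 47.2 in KO, against 40.4 and 43.8 in WT. At 48 h it was 37.9 and 39.4 in KO, against 29.6 and 31.1 in WT. KO lay above WT without overlap at each sampling. The difference over the samplings was 6.37 J numbers (KO minus WT, exact permutation p = 0.00926, the smallest possible, adjusted p = 0.0293, higher in KO in 6 of 6 pairs). By sampling it was 7.03 (steady state), 3.82 (24 h) and 8.25 (48 h). With the replicate block the adjusted exact permutation p was 0.0625, with p = 0.0312 the smallest possible. Leaving out replicate 1 of WT at 24 h or replicate 2 of KO at 24 h gave an adjusted p of 0.0556 by the same exact permutation test, with differences between 5.80 and 6.94 over all 12 omissions. Each copy showed it alone: the difference was 5.78 for TRAV7D-2, 6.39 for TRAV7D-3, 5.63 for TRAV7D-4 and 6.94 for TRAV7D-5. Each of these had an exact permutation p of 0.00926, the smallest possible, an adjusted p of 0.0241 over 13 added tests, and 0.0938 with the replicate block.

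This difference was not particular to TRAV7D. At steady state both KO libraries had a higher mean J number than both WT libraries for all 4 copies, beside 77 of 79 V segments (97.5%). At 24 h they did so for all 4 copies, beside 68 of 79 (86.1%), and at 48 h for all 4, beside 66 of 79 (83.5%). The median difference of the 4 copies was 7.14, 2.81 and 8.27 at steady state, 24 h and 48 h, beside 4.87, 3.98 and 5.67 over the 79 segments. All other V segments together had mean J numbers of 36.0, 46.4 and 38.5 in KO and 30.9, 42.4 and 32.8 in WT at the same samplings. The mean J number of TRAV7D minus that of all other V segments together differed between the genotypes by 1.45 (exact permutation p = 0.0556, adjusted p = 0.1), which misses the threshold. Without replicate 2 of WT at 24 h that difference was 1.82 with an adjusted exact permutation p of 0.0333.

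**Figure D3:**
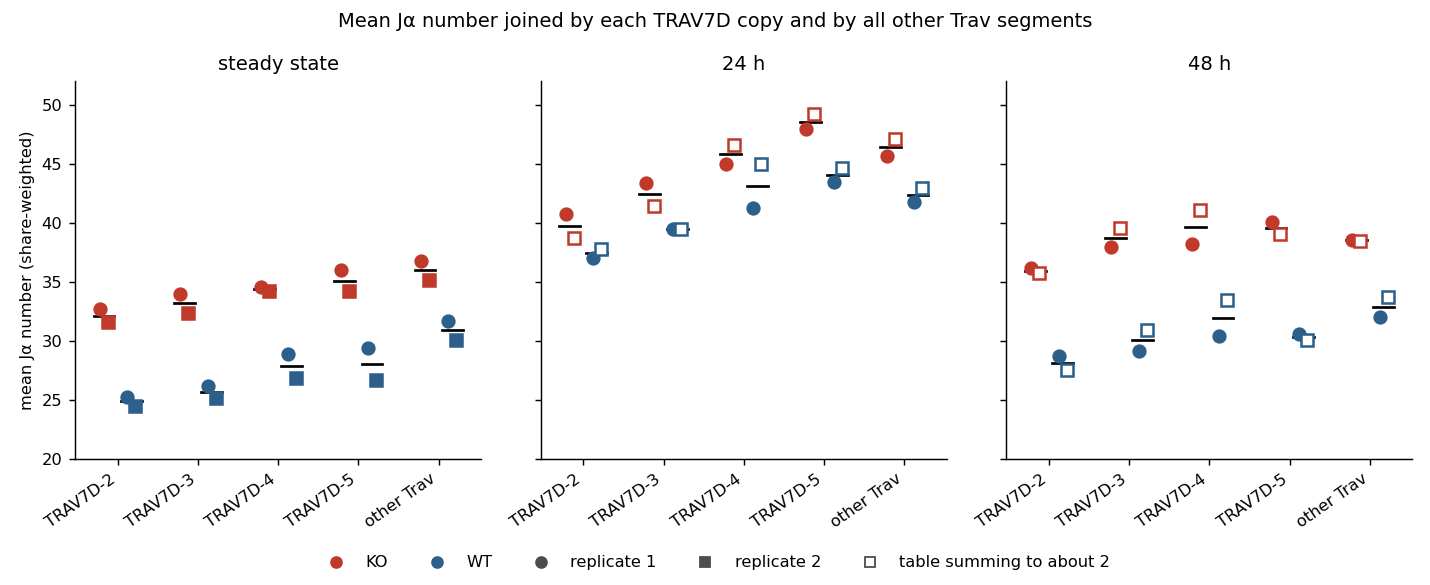
Mean J number (y axis) of each TRAV7D copy and of all other V segments together, by library, in 1 panel each for steady state, 24 h and 48 h, with DPASE KO (red) left of WT (blue). Circles are replicate 1, squares replicate 2, open symbols tables summing to about 2, and black bars the mean of 2 libraries. KO lies above WT for each copy in each panel, and also for the other V segments.

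Within a library the mean J number of the copies mostly rose with their row, which follows their order along the chromosome. At steady state the mean J number of TRAV7D-2, TRAV7D-3, TRAV7D-4 and TRAV7D-5 was 32.1, 33.2, 34.4 and 35.1 in KO and 24.9, 25.6, 27.9 and 28.0 in WT. At 24 h the same order gave 39.7, 42.4, 45.8 and 48.6 in KO and 37.4, 39.5, 43.1 and 44.0 in WT. At 48 h it gave 35.9, 38.7, 39.6 and 39.6 in KO and 28.1, 30.0, 31.9 and 30.3 in WT. TRAV7D-3 lay above TRAV7D-2 in 12 of 12 libraries, TRAV7D-4 above TRAV7D-3 in 12 of 12 and TRAV7D-5 above TRAV7D-4 in 8 of 12. The libraries without that last step were replicate 2 of WT at each sampling and of KO at 48 h. Those at 24 h and 48 h came in tables summing to about 2. The difference of TRAV7D-5 minus TRAV7D-2 averaged 4.60 J numbers and was above 0 in 12 of 12 libraries. It ran from 1.91 to 10.5, the latter in replicate 2 of KO at 24 h, a table summing to about 2. Same-numbered KO and WT libraries deviated together, whereas an exact sign-flip permutation over libraries treats them as independent, so its p may be too small. By that test the difference had a p of 0.000488, the smallest possible, and an adjusted p of 0.00635. Leaving out any 1 library gave 4.06 to 4.84, and replicate 1 alone at 24 h and 48 h gave 3.97 (adjusted exact p = 0.102, where 8 libraries allow no smaller p).

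Averaged over the 12 libraries, TRAV7D-2 was joined most to TRAJ42 (0.0602% of a library, range 0% to 0.108%), then TRAJ40 and TRAJ32. TRAV7D-3 was joined most to TRAJ40 (0.0580%), TRAJ42 and TRAJ49. TRAV7D-4 had TRAJ48 (0.0816%), TRAJ52 and TRAJ49. TRAV7D-5 had TRAJ57 (0.0725%), TRAJ49 and TRAJ56. These means pool samplings and genotypes that differ in their J use, and the leading partner changed between libraries. TRAJ42 led for TRAV7D-2 in 6 of 12 libraries, while TRAJ40 for TRAV7D-3, TRAJ48 for TRAV7D-4 and TRAJ57 for TRAV7D-5 each led in 3 of 12. In the WT libraries at steady state TRAJ4, near the 3' end, led for TRAV7D-3, TRAV7D-4 and TRAV7D-5 in both replicates and for TRAV7D-2 in replicate 2 (0.0877%), where TRAJ42 had 0.0655%. The first place of TRAJ57 rests on replicate 2 of KO at 24 h (0.305%), a table summing to about 2. Without it TRAJ57 averaged 0.0513% and TRAJ49 led with 0.0595%. Likewise, without replicate 2 of WT at 24 h TRAJ48 averaged 0.0740% with TRAV7D-4 and TRAJ52 led with 0.0757%. At 24 h TRAJ57 took 4.69% and 12.01% of all TRAV7D in KO and 2.44% and 5.87% in WT, with overlapping groups and the higher value of each genotype in a table summing to about 2.

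**Figure D4:**
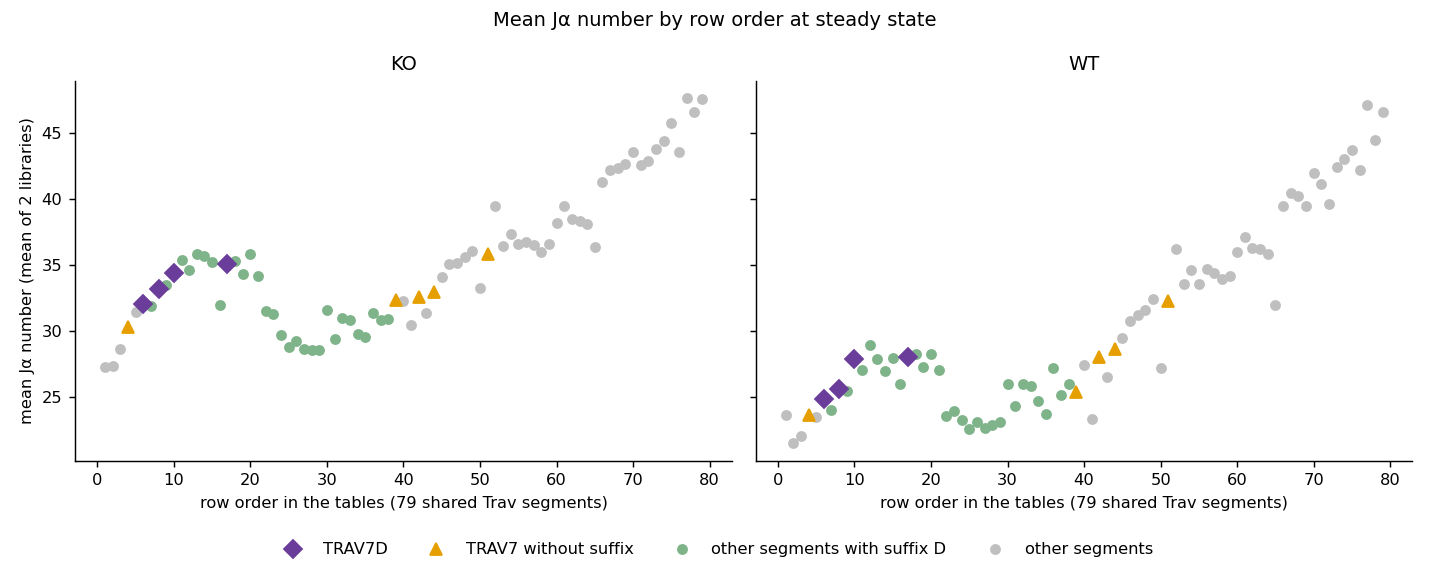
Mean J number at steady state (y axis, mean of 2 libraries) of each of the 79 V segments by its row in the tables (x axis), with DPASE KO in the left panel and WT in the right. Diamonds mark the TRAV7D copies at rows 6, 8, 10 and 17, triangles TRAV7 without suffix, green points other suffix-D segments and grey points the rest; most neighbours of the copies rise with them, TRAV11D just before TRAV7D-5 lies lower, and the suffix-D segments after row 21 lie below TRAV7D-5.

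The rows beside the copies were read in the same way. At steady state TRAV6-2 had a mean J number of 31.5 in KO and 23.5 in WT, and TRAV6D-3 had 31.9 in KO and 24.0 in WT. TRAV6D-4 had 33.5 in KO and 25.5 in WT, and TRAV8D-1 had 35.4 in KO and 27.1 in WT. Beside TRAV7D-5, TRAV11D had 32.0 in KO and 26.1 in WT, and TRAV12D-1 had 35.3 in KO and 28.3 in WT. TRAV12D-1 thus lay near TRAV7D-5, at 35.1 in KO and 28.0 in WT, whereas TRAV11D lay lower, in KO about as low as TRAV7D-2 (32.1). Counted from the lowest mean J number among the 79 segments, the copies ranked 27, 32, 38 and 41 in KO and 19, 23, 37 and 40 in WT. Against all other V segments of the same library, TRAV7D lay lower by 1.64 J numbers on average (range -4.42 to 0.922, below 0 in 9 of 12 libraries). The values above 0 were replicate 2 of WT at 24 h and of KO at 24 h and 48 h, all in tables summing to about 2. Group means ran from -4.37 in WT at steady state to 0.11 in KO at 48 h. The exact sign-flip permutation p was 0.00977 (adjusted p = 0.0293), again with all libraries treated as independent. Without replicate 1 of WT at 24 h or replicate 2 of KO at 24 h the adjusted exact p was 0.0556, and with replicate 1 alone at 24 h and 48 h the difference was -2.37 (adjusted exact p = 0.0703). TRAV7D-2 lay below the other segments in 12 of 12 libraries and TRAV7D-5 in 6 of 12.

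Among the 172 TRAV7D pairs, few were called one by one, and all of those joined a 3' J segment and were lower in KO. At steady state limma called 2 of 172 at an adjusted p under 0.05, beside 10 of 3397 pairs (0.294%). TRAV7D-4 with TRAJ2 made up 0.00713% and 0.00470% of the KO libraries, against 0.0506% and 0.0438% of the WT libraries (log2 difference -1.85, SE 0.208, limma adjusted p = 0.0320). TRAV7D-3 with TRAJ4 made up 0.0128% and 0.0137% in KO, against 0.0683% and 0.0752% in WT (log2 difference -1.81, SE 0.259, limma adjusted p = 0.0462). For both pairs the genotypes did not overlap at steady state. Over the mean of the samplings limma called 4 of 172, beside 37 of 3397 (1.09%). These were TRAV7D-3 with TRAJ4 (-1.31), TRAV7D-3 with TRAJ9 (-1.12), TRAV7D-5 with TRAJ2 (-1.12) and TRAV7D-4 with TRAJ2 (-1.07). No pair was called at 24 h or at 48 h. An unadjusted p under 0.05 was reached by 19 of the 172 at steady state (6.21% of all pairs), 3 at 24 h (5.5%) and 32 at 48 h (15%). With the replicate block the TRAV7D pairs called were 0 of 172 at steady state, 0 at 24 h, 8 at 48 h (1.65% of all pairs) and 11 over the mean (2.24%), each lower in KO and in the 3' window. These counts rest on single libraries. At steady state the count was 10 without either WT library of 48 h and 0 without any 1 of the other 10 libraries. Over the mean it was 10 without replicate 1 of WT at 48 h, 26 without replicate 2 of WT at 48 h, 8 without replicate 1 of KO at 48 h, and 0 without any steady-state library or any 24 h library other than replicate 1 of WT. The share of all 3397 pairs called under these omissions is not given. The counts show only how far the calls depend on single libraries.

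The sign of the difference went with the position of the J segment. The median log2 difference at steady state was 0.30 for the 52 pairs of the 5' window, -0.08 for the 64 in the middle (TRAJ40 to TRAJ22) and -0.77 for the 56 of the 3' window. At 24 h these medians were 0.14, -0.40 and -0.15, and at 48 h 0.34, -0.18 and -0.80. Over all 172 pairs the median was -0.09, -0.20 and -0.21 at steady state, 24 h and 48 h, beside 0.03, -0.12 and -0.04 over the 3397 pairs.

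The tables assigned more to TRAV7D-2 than to TRAV7-2, and less to each other copy than to its namesake. The V exons of TRAV7D-2 and TRAV7-2 have the same bases, so their ratio holds for the deposited assignment and need not hold for the copies themselves. TRAV7-2 made up 0.122% and 0.158% of the KO libraries and 0.128% and 0.223% of the WT libraries at steady state. The log2 ratio of TRAV7D-2 to TRAV7-2 lay between 0.75 and 3.98 and was above 0 in 12 of 12 libraries. Its lowest values were 0.75 (WT, 48 h), 1.73 (KO, 48 h) and 1.98 (KO, 24 h), all replicate 2 in tables summing to about 2. The other copies were listed below their namesakes in 12 of 12 libraries, with log2 ratios of -1.77 to -1.21 for TRAV7D-3, -2.29 to -0.40 for TRAV7D-4 and -1.55 to -0.38 for TRAV7D-5. The -2.29 (replicate 2 of KO at 48 h) and the -0.38 (replicate 2 of KO at 24 h) also came from tables summing to about 2. TRAV7-3, the most used segment of the family at steady state, made up 3.96% and 4.05% of the KO libraries and 3.92% and 4.18% of the WT libraries at steady state. No ratio passed the threshold between the genotypes (exact permutation, adjusted p = 0.361 to 0.880). Nor did a sum of a copy and its namesake, which does not depend on how reads were split between them (exact permutation, adjusted p = 0.430 to 0.612). The sum of TRAV7D-5 and TRAV7-5 differed by 0.349 percentage points (KO minus WT), higher in KO in 5 of 6 pairs. The ratio of all TRAV7D to all TRAV7 without suffix differed by -0.14 on the log2 scale (adjusted exact permutation p = 0.476).

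**Figure D5:**
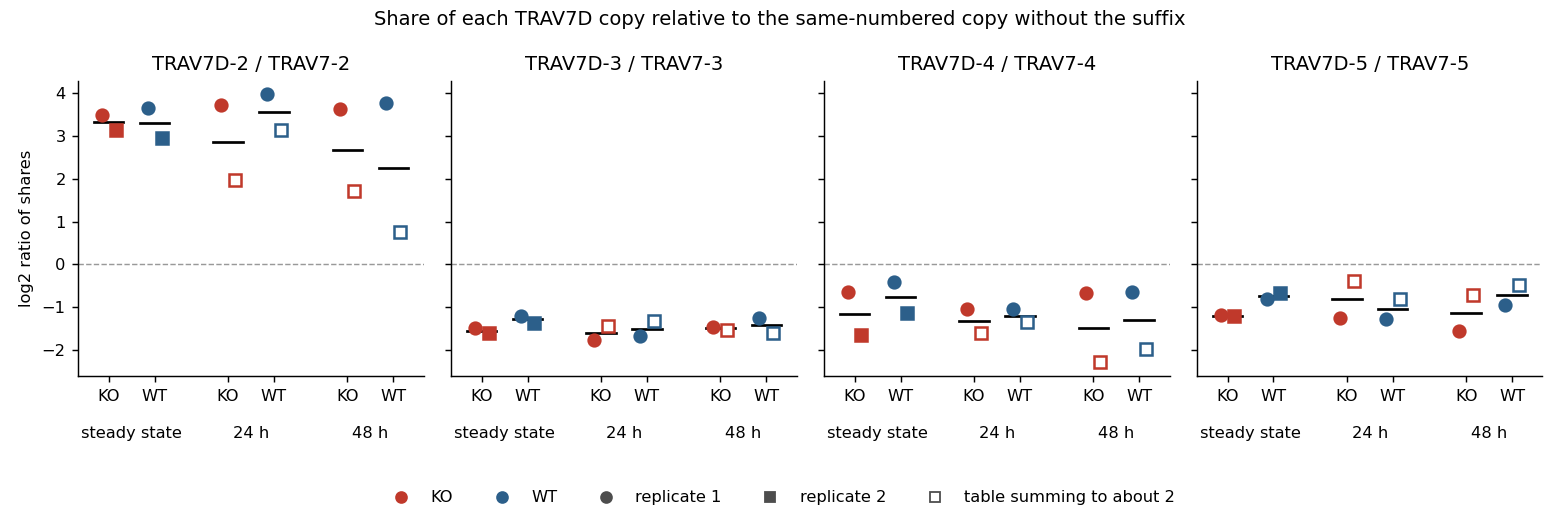
Log2 ratio of each TRAV7D copy to the TRAV7 segment of the same number (y axis; 0 marks equal shares) by library at steady state, 24 h and 48 h, with DPASE KO (red) left of WT (blue). Circles are replicate 1, squares replicate 2, and open symbols tables summing to about 2. TRAV7D-2 lies above 0 in all 12 libraries and the other copies lie below 0.

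The mean J number of a copy and its namesake was compared within libraries. TRAV7D-2 had the lower value in 9 of 12 libraries, TRAV7D-3 in 5, TRAV7D-4 in 2 and TRAV7D-5 in 6. At steady state TRAV7-2 to TRAV7-5 had mean J numbers of 32.4, 32.6, 32.9 and 35.8 in KO and 25.4, 28.1, 28.7 and 32.3 in WT.

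The balance among the copies was summarised as a mean copy order, in which TRAV7D-2 counts 1 and TRAV7D-5 counts 4, weighted by share. It differed by 0.0755 between the genotypes (KO minus WT, exact permutation p = 0.528, adjusted p = 0.574). The KO library had the higher value in 6 of 6 same-numbered pairs, and with the replicate block the exact permutation p was 0.0312, the smallest possible, with an adjusted p of 0.0625. Over the 12 libraries the value ran from 2.33 to 3.36, a span wider than the difference between genotypes.

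The V segments whose share moved most like that of summed TRAV7D over the 12 libraries were TRAV5D-4 (Pearson's r = 0.949), TRAV14D-2 (0.917), TRAV6D-4 (0.907), TRAV6D-5 (0.894) and TRAV12D-3 (0.891), all with the suffix D. The libraries share their kind of table and their sampling, so these values are a description. Within the 8 tables summing to about 1 the same segments had r = 0.929, 0.941, 0.831, 0.853 and 0.956. Other suffix-D segments went the other way over the 12 libraries, with r down to -0.716 (TRAV15D-2/DV6D-2) and -0.702 (TRAV9D-2). Within the 8 tables those segments had r = 0.822 and 0.027. The copies themselves were mixed over the 12 libraries. TRAV7D-5 had r = -0.731, -0.770 and -0.593 with TRAV7D-2, TRAV7D-3 and TRAV7D-4, while r among those copies was 0.663 to 0.987.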

How the data were processed

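The authors deposited 1 table per library with a fraction for every Trav-Traj pair, of which 12 were used. The aligner, genome build and counted unit, not given in the sources used here, leave the depth unknown. No column lacked a sample (0). Each fraction was divided by its table's own total and given in percent. This removes the difference between tables summing to about 1 and to about 2, but not their coarser steps and more frequent zeros.

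Shares were compared on the log2(percent + 0.01) scale with limma 3.58.1 in R 4.3.3, with 1 mean per group over 12 libraries and no filter. Benjamini-Hochberg adjustment ran over 79 segments or 3397 pairs, with calls at an adjusted p under 0.05. The fit was tested on simulated data. Single values used exact two-sided permutations of genotype within sampling (216 arrangements, smallest p 0.00926) or sign flips over libraries (4096, smallest p 0.000488), in Python 3.11.15 with numpy 2.4.6, pandas 2.3.3 and scipy 1.17.1. They were adjusted over 9 planned and 13 added tests. The J windows were TRAJ58 to TRAJ42, TRAJ40 to TRAJ22 and TRAJ21 to TRAJ2.

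The labels number the replicates 1 and 2 in every group. Deviations of same-numbered KO and WT libraries from their group means correlated at 0.723, 0.927 and 0.931 over 79 segments at steady state, 24 h and 48 h, so the numbers were taken to pair the libraries. At 24 h and 48 h replicate 2 of both genotypes came in tables summing to about 2. There a pairing cannot be told apart from the kind of table.

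Named were every TRAV7D copy, its namesakes and row neighbours, its 3 J partners of highest mean share, up to 5 called pairs per comparison and the 5 other segments of highest correlation. The members, the lists and the tests were chosen with earlier results of these data known. Alternatives were other pseudocounts (0.001 and 0.1), a filter on low shares, the total of shared segments and centring each library on its mean log2 value. Further ones were the replicate block, replicate 1 alone at 24 h and 48 h, and leaving out each library. Sequences came from GENCODE M21 transcripts, and no protein sequences were used here.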

Additional observations from a re-analysis of the deposited data

How the results depend on the processing

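Depth is unknown, so what it limits can be seen only in the steps of the tables: the 4 tables summing to about 2 list many TRAV7D pairs at 0, and values that rest on them are the least precise. V segments called among the 4 copies (0 in every KO minus WT comparison) stayed at 0 under each pseudocount, the filter, the shared total, centring, the replicate block and every omission of 1 library. Calls with replicate 1 alone at 24 h and 48 h are not used here. The lone libraries are then assumed to vary like the steady-state ones, and with so few samples no permutation of genotype can reach p = 0.05.

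TRAV7D pairs called at steady state (2) were 0 with a pseudocount of 0.001, 9 with 0.1, 0 with the filter, 0 after centring, 0 with the replicate block and 33 with replicate 1 alone. At 48 h (0) they were 5 with a pseudocount of 0.1, 8 with the replicate block and 57 with replicate 1 alone. Over the mean (4) they were 0 with a pseudocount of 0.001, 12 with 0.1, 0 with the filter, 1 after centring, 11 with the replicate block and 87 with replicate 1 alone. Omitting 1 library gave 0 to 10 at steady state, 0 to 11 at 48 h and 0 to 26 over the mean. The cause was not tested.

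With the replicate block the mean J difference was 6.37, the 5' window 16.9 points and the 3' window -13.3 points, each at an adjusted exact permutation p of 0.0625, because that pairing allows no p below 0.0312; the same holds for the mean J number of each copy. Apart from these and the pair counts above, the block changed no call among the results it was run on; the sign-flip comparisons within a library were not run with it. With replicate 1 alone these values were 6.51, 17.2 and -14.5, and TRAV7D minus the other segments was -2.37. Omitting 1 library gave 5.80 to 6.94 for the mean J difference, 14.8 to 19.0 and -14.1 to -12.5 points for the windows, 1.08 to 1.82 for the difference between TRAV7D and the other segments, -1.87 to -1.39 for TRAV7D minus the other segments, -0.045 to 0.20 for the copy order and -0.039 to 0.31 for the log2 ratio to the other suffix-D segments.

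No direction of a single copy's share, none of which was called in the fit of all 12 libraries, held under every omission, apart from those of TRAV7D-2, TRAV7D-3 and TRAV7D-5 at steady state and of TRAV7D-4 over the mean. Omitting 1 library gave log2 differences of -0.73 to 0.13 for TRAV7D-4 at steady state. At 24 h they were -1.30 to 0.61 for TRAV7D-2, -1.12 to 0.48 for TRAV7D-3, -0.55 to 0.00559 for TRAV7D-4 and -0.36 to 0.76 for TRAV7D-5. At 48 h they were -1.26 to 0.90, -1.02 to 0.98, -0.48 to 0.33 and -0.59 to 0.51 in the same order. Over the mean they were -0.62 to 0.095 for TRAV7D-2, -0.54 to 0.13 for TRAV7D-3 and -0.18 to 0.19 for TRAV7D-5. The log2 ratio to the namesake ran from -0.59 to 0.41 for TRAV7D-2 and -0.49 to 0.050 for TRAV7D-4, and the sum with the namesake from -0.96 to 0.37 points for TRAV7D-3 and -0.41 to 0.067 for TRAV7D-4. After centring, TRAV7D-3 was at 0.037 and TRAV7D-5 at 0.019 at 48 h. TRAV7D-5 over the mean was -0.0084 with the shared total and -0.19 with replicate 1 alone.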
